A study of Mus musculus with 12 samples.

Results

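Interferon-stimulated genes are the genes that cells switch on after sensing interferon, and 39 of them, from transcription factors to antiviral effector proteins, were followed by gene name in a table of read counts for 18903 genes. All 39 were in the table once and all 39 passed the filter on low counts. The table covers primary astrocytes grown from mouse brain at postnatal days 1, 6 and 8 (P1, P6 and P8), and each of the 6 groups by genotype label and day has 2 of the 12 libraries. WT cultures came from mice with both *Rack7* alleles intact (*Rack7*+/+), which per the study's description carry the Cre transgene too, and the days are ages of the mice at culture. *Rack7*-cKO cultures came from mice in which floxed exons of both *Rack7* alleles are removed by that Cre, which is under the human *GFAP* promoter, which is active in the progenitors of the dorsal forebrain and their offspring. Meninges were stripped off before culture, and flasks were shaken for a long time to detach microglia and oligodendrocyte-lineage cells, without a sort by markers. The labels call the libraries biological replicates without saying how many animals gave each, so p-values measure the spread between these libraries. The groups compared were WT against cKO at each day, and the steps between days within a label. Each day stands for cultures from different mice, grown for days before and after the shaking. A step between days therefore cannot be told apart from a difference between culture preparations. WT and cKO cultures of a day also came from different mice, and whether they were prepared together is not stated. A difference between labels, and its change between days (called the genotype effect below), may therefore also hold a difference between preparations.

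Interferons bind receptors at the cell surface, and receptor-bound kinases, which for type I interferon are JAK1 and TYK2, then phosphorylate STAT proteins. After type I interferon, a complex that holds STAT2 and IRF9 binds a DNA element called ISRE in the promoters of these genes, whereas interferon gamma acts through an element called GAS. The products block viral entry, translation and replication, sense viral RNA and DNA, conjugate the ubiquitin-like protein ISG15 to other proteins, and switch on more interferon. Astrocytes and microglia, the resident macrophages of the brain, both respond to interferon in this way.

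The gene for RACK7 has the symbol *Zmynd8* (chromosome 2, 165784152 to 165899016 of GRCm38), and it was higher, not lower, in the libraries labelled cKO. Its CPM (read counts relative to the library total after TMM scaling) was 136 and 136 in P1 WT and 213 and 216 in P1 cKO. At P6 it was 114 and 116 in WT and 242 and 230.5 in cKO, and P8 WT had 99.98 and 104 where P8 cKO had 160.4 and 171. By day, cKO exceeded WT by 0.65, 1.04 and 0.70 on the log2 scale, with adjusted p of 3.16e-05, 4.97e-07 and 3.78e-06 in edgeR. The cause of the higher count was not tested. The study itself checked RACK7 protein in WT and cKO primary astrocytes by immunoblot, and reported far fewer RACK7 binding sites on cKO chromatin. The allele removes only a small part of the transcript, so a count over the whole gene does not check the deletion. All groups are therefore named by their labels. Library totals lay between 54413504 and 89183250 counts, and the fewest counts for a member in any library were 92, for *Mx1*.

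The members spanned a wide range of levels. In CPM per kilobase of exon, averaged over the 12 libraries, *Ifitm3*, a membrane protein that hinders entry of viruses, was highest at 679, ahead of *Bst2* (tetherin, which holds budding virus at the membrane) at 260.0 and *Ifit3* at 146. *Isg15* came next with 81.3 CPM per kilobase, and *Mx1* and *Mx2*, dynamin-like GTPases against viruses, were lowest at 4.89 and 4.05. Some of the members share sequence with other genes, and how reads shared between genes were counted is not stated. Of the 50-base stretches in the longest transcript, 57.6% of those of *Oas1a* also occur in *Oas1g* and 51.2% of those of *Ifit3* in *Ifit3b*, so these counts are uncertain. *Igtp* and *Irgm2*, as well as *Parp9* and *Dtx3l*, overlap in the annotation, and *Irf7*, *Irf9* and *Rtp4* overlap *Phrf1*, *Rnf31* and *Masp1*.

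Start regions of the members were read from RefSeq to show where interferon elements can lie. The members were chosen as interferon-induced genes, so a high share with such elements follows from the choice. The part of these elements in the changes between libraries was not tested. Of 39 members, 29 had an entry, each window holding 250 bases before and 50 after the transcription start. In 23 of 33 windows the 30 bases from the start lay near the 5′ end of an annotated transcript of that gene. The core of ISRE, GAAA followed by any pair of bases and GAAA again, searched on both strands, occurred in windows of 18 of the 29 (62.1%), against 3.99% of all symbols with a window. TTCNNNGAA, the core of GAS and its own reverse complement, occurred in 10 (34.5%), against 9.55%. Windows of 7 members held both motifs and those of 8 neither, and the motifs overlapped in 2 windows. Of the 27 ISRE-type matches, 20 lay within 150 bases before the start. Shown here are the 150 bases before the start of *Rsad2*, *Oas3* and *Bst2*, whose differences at P8 the results turn on, of *Irf1*, which differed at P6, and of *Isg15*, a member induced in most cell types (build GRCm38.p6, written 5′ to 3′ on the gene's strand). Capitals mark the matches.
Rsad2 (chr12:26456453-26456602, minus strand): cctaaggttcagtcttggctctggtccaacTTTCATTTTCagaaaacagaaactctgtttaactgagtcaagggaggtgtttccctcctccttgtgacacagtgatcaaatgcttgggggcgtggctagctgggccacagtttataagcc
Oas3 (chr5:120777660-120777809, minus strand): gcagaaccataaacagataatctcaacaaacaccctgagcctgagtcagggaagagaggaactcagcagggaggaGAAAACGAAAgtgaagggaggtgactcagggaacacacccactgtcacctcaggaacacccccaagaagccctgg
Bst2 (chr8:71537473-71537622, minus strand): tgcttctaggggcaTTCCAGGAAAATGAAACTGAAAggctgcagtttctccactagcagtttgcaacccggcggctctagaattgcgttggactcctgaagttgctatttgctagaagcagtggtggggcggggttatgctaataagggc
Irf1 (chr11:53769864-53770013, plus strand): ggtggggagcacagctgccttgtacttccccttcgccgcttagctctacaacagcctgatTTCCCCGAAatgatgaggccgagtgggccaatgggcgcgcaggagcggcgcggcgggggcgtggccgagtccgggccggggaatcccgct
Isg15 (chr4:156200819-156200968, minus strand): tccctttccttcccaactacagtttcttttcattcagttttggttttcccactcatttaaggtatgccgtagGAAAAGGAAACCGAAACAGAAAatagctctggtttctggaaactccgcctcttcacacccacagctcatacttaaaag
*Isg15* held 3 overlapping ISRE-type matches, *Bst2* 2 with a GAS-type match overlapping the upstream match, *Oas3* and *Rsad2* 1 each, and *Irf1* a GAS-type match alone. *Gbp2* also held 1 ISRE-type match, 59 bases before its start. No match says only that these letters are not in that window.

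**Figure D1:**
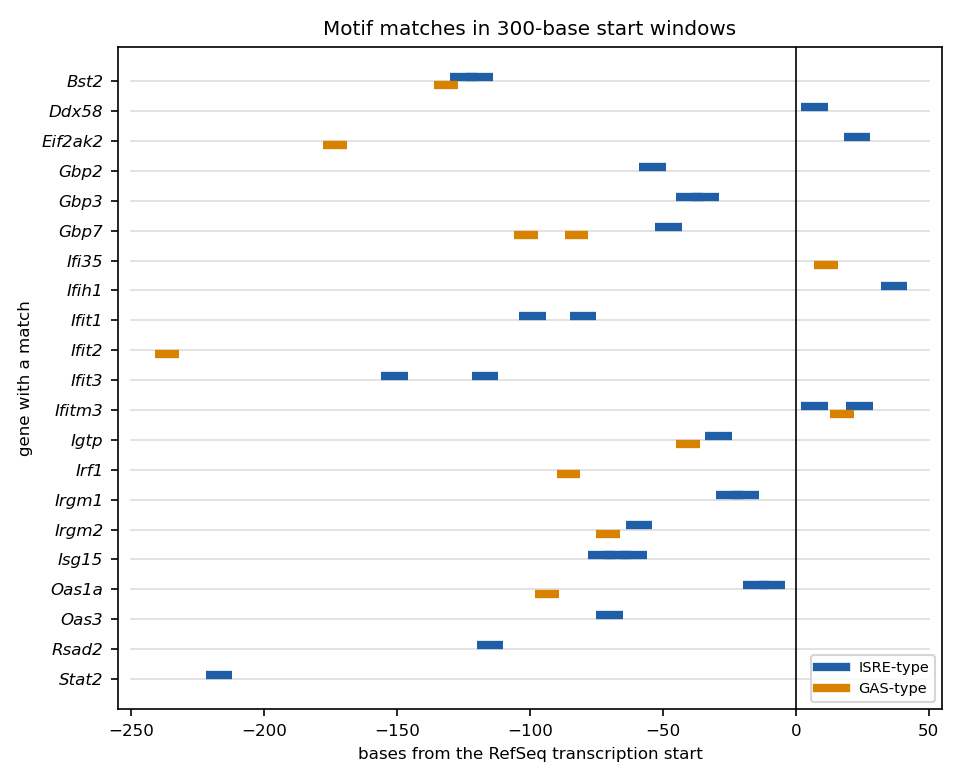
Each line is the window of 300 bases around the RefSeq start of a member with a match, from 250 bases before to 50 after, and windows of a gene with several starts are laid over one another. Blue bars are ISRE-type matches (27) and orange bars GAS-type matches (11). Blue bars cluster in the 150 bases before the start, where 20 of 27 lie.

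**Figure D2:**
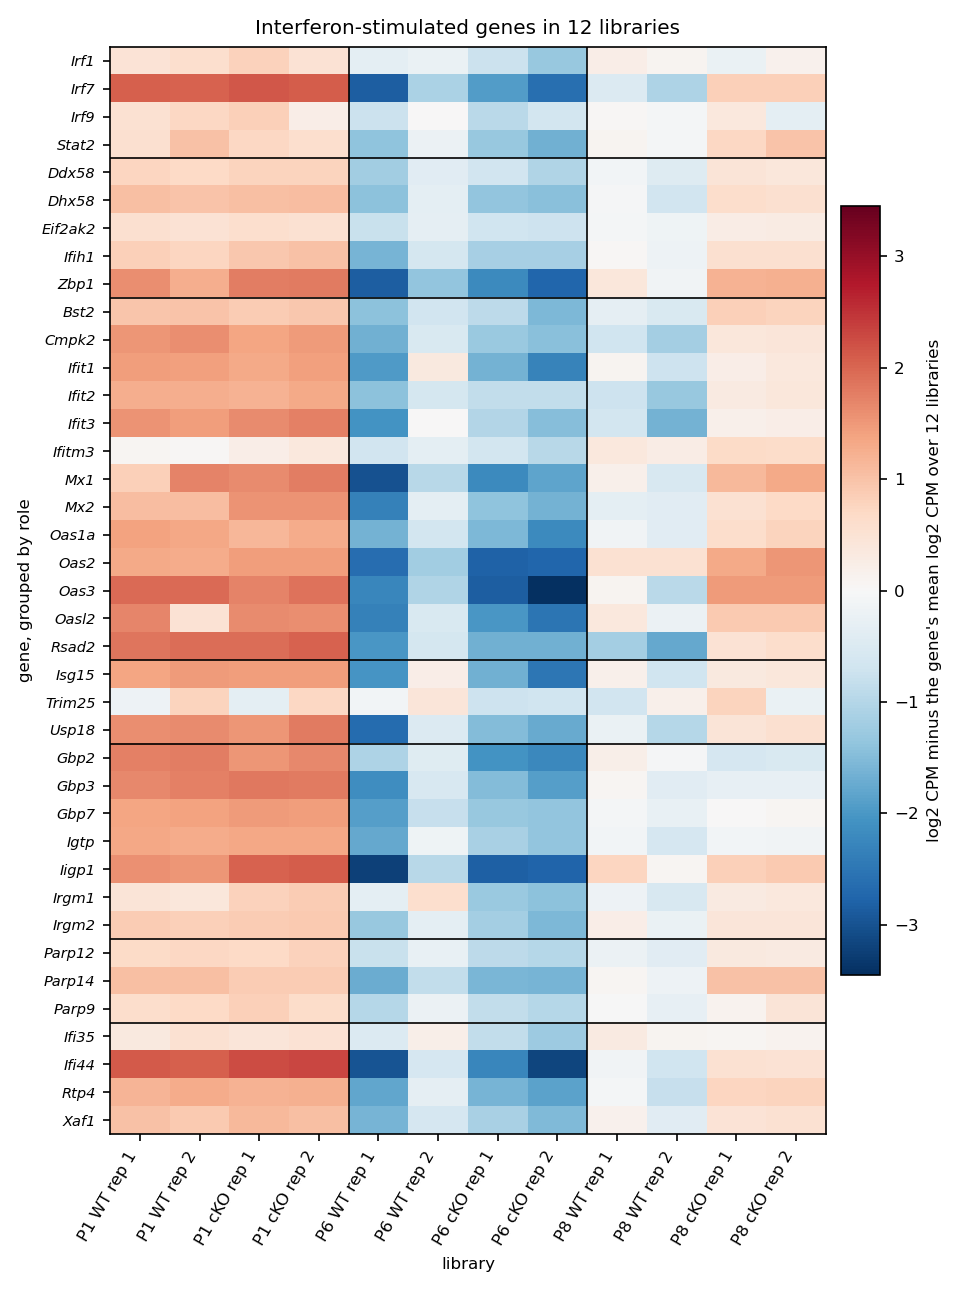
Each row is one of the 39 genes, ordered by role with lines between roles, and each column one of the 12 libraries. Colour gives the log2 CPM minus that gene's mean over all libraries, red above and blue below. P1 libraries are reddest and P6 libraries bluest, and P6 WT replicate 2 is paler than P6 WT replicate 1.

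Replicates of P6 WT stood furthest apart for these genes. All 39 were higher in P6 WT replicate 2 than in P6 WT replicate 1, with a median ratio of 2.15, and 22 of them (56.4%) were at least 2-fold apart, against 6.86% of all genes tested. In the 5 other groups at most 1 of the 39 was 2-fold apart and the median ratio of replicate 2 to replicate 1 was between 0.740 and 1.03. Summed over the members, CPM was 1387 in P6 WT replicate 1 and 2622 in replicate 2. The summed microglia markers differed little between the same libraries, at 4240 and 4415, and so did the summed astrocyte markers, at 1546 and 1732. The cause of this difference was not tested. The counts and medians of the members that rest on P6 WT are therefore given with and without each of these libraries. Members also lay to one side in P8 WT, where 38 of 39 were lower in replicate 2 with a median ratio of 0.740 and sums of 3200.4 and 2629, and in P6 cKO, where 33 of 39 were lower in replicate 2 with a median ratio of 0.844. *Trim25*, a ubiquitin ligase that acts on the RNA sensor RIG-I, also varied within groups, with 96.3 and 186 CPM in P1 WT and 184 and 92.2 in P8 cKO, and *Oasl2* stood at 444 and 194 in P1 WT.

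**Figure D3:**
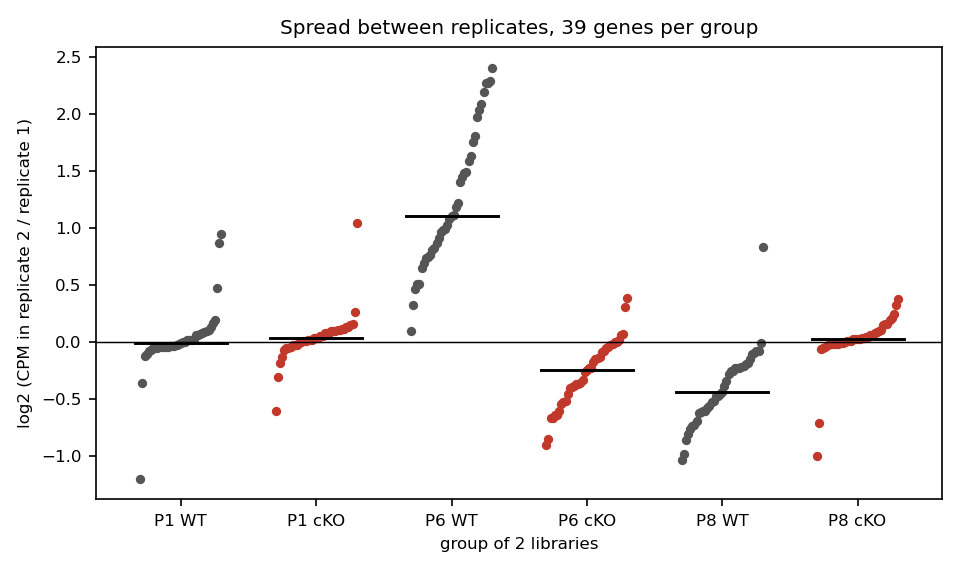
Each point is one of the 39 genes, placed by its log2 ratio of CPM in replicate 2 to replicate 1 within a group of 2 libraries. Black bars are medians, and points are spread sideways by rank. The P6 WT points all lie above 0, with a median of 1.10, while the other groups centre between -0.44 and 0.04.

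At P1 no member was called different between labels. Of the 39 members, 0 were called higher and 0 lower in cKO. A call needed a change of 1.5-fold or more with an adjusted p below 0.05 in the quasi-likelihood test of edgeR, adjusted by Benjamini-Hochberg over the 17938 genes tested. Among all genes tested, 4.01% were called higher and 0.892% lower at P1. With all 12 libraries in the fit, no member had an unadjusted p below 0.05 in edgeR or in DESeq2, and the smallest adjusted p was 0.314. With the P1 libraries alone, 12 members had an unadjusted p below 0.05 in edgeR, and none was called. The log2 fold changes (cKO minus WT) ran from -0.17 (*Parp14*) to 0.51 (*Iigp1*), with a median of 0.044 against 0 over all genes. Without a call, 17 of the 39 had both cKO libraries above both WT libraries at P1, against 25.8% of all genes tested. Another 6, *Bst2*, *Cmpk2*, *Gbp2*, *Oas1a*, *Oas3* and *Parp14*, had both cKO libraries below both WT libraries, against 25.4%. *Irgm1* had 211 and 205 CPM in WT and 269.6 and 285 in cKO, a log2 fold change of 0.42 that was not called. *Irf7* had 176 and 172 CPM in WT and 184 and 178 in cKO, and *Bst2* had 378 and 383 in WT and 358 and 369 in cKO. Summed over the members, CPM was 6533 and 6387 in P1 WT and 6716 and 6970 in P1 cKO. Summed fibroblast markers moved with the label, at 411 and 424 in WT and 2518 and 2477 in cKO, with 8 of 8 called higher, and microglia markers summed to 6003 and 6117 in WT and 5137 and 5071 in cKO. Their part in the member values was not tested.

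From P1 to P6 nearly all members fell in both labels. In WT, 35 of 39 members fell at the cut-off, against 10.9% of all genes called lower, with a median log2 change of -2.09 against 0 for all genes. In cKO, 38 of 39 fell, against 10.4% of all genes, with a median of -2.78. No member was called higher in either label, where 12.2% of all genes in WT and 11.0% in cKO were. Summed CPM of the members went from 6460 ± 103 to 2004 ± 874 in WT and from 6843 ± 179 to 1365 ± 167 in cKO (SD, n = 2). In bulk RNA, fewer cells of a type and less RNA per cell cannot be told apart. Summed microglia markers went from 6060 ± 80.8 to 4327 ± 124 in WT, with 7 of 16 identifiers called lower and 1 higher, and from 5104 ± 46.5 to 4775 ± 40.4 in cKO, with 5 lower and 2 higher, and their part in the fall was not tested. Fibroblast markers went the other way in WT, from 411 and 424 to 6835 and 6878 with 8 of 8 called higher, and were 2518 and 2477 and then 2706 and 2534 in cKO, with 1 of 8 higher and 4 lower. Their part was not tested either.

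Among the largest falls were those of *Irf7*, *Zbp1*, *Oas3*, *Ifi44* and *Iigp1* with log2 changes from -3.77 to -3.23 in WT and from -4.92 to -4.23 in cKO. *Irf7*, which drives the second wave of interferon production (chromosome 7, 141262706 to 141266481), had 176 and 172 CPM in P1 WT and 5.84 and 19.7 in P6 WT. In cKO it had 184 and 178 at P1 and 10.9 and 6.89 at P6. The P6 libraries lay far below the P1 libraries in both labels, with log2 changes of -3.77 (standard error 0.49, adjusted p = 0.000255) in WT and -4.34 (standard error 0.51, adjusted p = 0.000139) in cKO. With 1 library left out in turn, the WT change lay between -4.90 and -3.14. *Ifi44*, an interferon-induced protein of cell growth arrest, had a mean of 142 ± 3.19 and 13.3 ± 12.9 CPM in WT (SD, n = 2), and 162 ± 4.48 and 5.33 ± 2.28 in cKO, and its WT change of -3.41 lay between -5.07 and -2.66 with 1 library left out. *Trim25* was the only member not called in either label, and *Ifi35*, *Ifitm3* and *Irgm1* were not called in WT. *Ifitm3* reached an adjusted p of 0.00541 in WT with a log2 change of -0.55, under the fold limit. Without P6 WT replicate 2, 38 members fell in WT with a median of -2.99, and without P6 WT replicate 1, 34 fell with a median of -1.52.

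All 4 transcription factors fell from P1 to P6 in both labels. *Stat2*, which brings an activation domain to the complex on ISRE (chromosome 10, 128270559 to 128292849), had 145 and 202 CPM in P1 WT, 38.2 and 86.7 in P6 WT and 107 and 95.0 in P8 WT. In cKO it had 163 and 149 at P1, 40.3 and 31.4 at P6 and, at P8, 165 and 196. Both labels were thus lowest at P6, and at P8 both cKO libraries lay above both WT libraries without a call (adjusted p = 0.0764). *Irf9*, the DNA-binding part of that complex (chromosome 14, 55603571 to 55610030), had 88.0 and 98.8 CPM in P1 WT, 36.5 and 60.8 in P6 WT and 62.3 and 57.9 in P8 WT. The cKO libraries had 108 and 71.2 at P1, 31.6 and 39.2 at P6 and, at P8, 78.3 and 48.0. It was not called between labels at any day, and its replicates in P1 cKO and P8 cKO lay apart.

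At P6, 5 members were lower in cKO and none higher. They were *Oas3*, *Irgm1*, *Gbp2*, *Ifi35* and *Irf1*, or 12.8% of the members, against 6.38% of all genes called lower and 7.16% called higher. No member with a positive difference had an unadjusted p below 0.05 in edgeR or in DESeq2. *Oas3*, a synthase of the signal molecule that activates RNase L (chromosome 5, 120753098 to 120777661), had 5.46 and 12.7 CPM in WT and 3.61 and 2.38 in cKO. The WT libraries both lay above the cKO libraries, with a log2 fold change of -1.60 (standard error 0.43, adjusted p = 0.0219). *Irgm1*, an immunity-related GTPase that acts on vacuoles holding microbes (chromosome 11, 48861968 to 48871683), had 123 and 233 in WT and 64.6 and 58.7 in cKO. Its log2 fold change was -1.53 (standard error 0.24, adjusted p = 0.00151). *Gbp2*, a guanylate-binding protein induced above all by interferon gamma (chromosome 3, 142620602 to 142638008), had 36.9 and 58.1 in WT and 18.5 and 16.4 in cKO, a log2 fold change of -1.44 (standard error 0.18, adjusted p = 0.000334). These were the 3 largest of the called differences, and for each the WT libraries lay above the cKO libraries. *Ifi35*, which binds the protein NMI (chromosome 11, 101448407 to 101458698), had 21.7 and 35.1 in WT and 16.9 and 12.8 in cKO, a log2 fold change of -0.93 (standard error 0.21, adjusted p = 0.0104). *Irf1*, a transcription factor of the interferon gamma response (chromosome 11, 53770014 to 53778374), had 27.9 and 29.9 in WT and 20.8 and 14.3 in cKO, a log2 fold change of -0.72 (standard error 0.19, adjusted p = 0.0206). *Parp12* had an adjusted p of 0.0458 with a log2 fold change of -0.44, under the fold limit.

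The size of the P6 difference for the set as a whole rested on P6 WT replicate 2. Over the 39 members the median log2 fold change was -0.53, with 38 below 0, against 0 for all genes. Without P6 WT replicate 2 the median was 0.086, 2 members (*Gbp2* and *Irgm1*) were called lower, and 2 others (*Mx2* and *Usp18*) were called higher. Without P6 WT replicate 1 the median was -1.10, and 28 were called lower. *Gbp2* and *Irgm1* kept their call in each of the 17 other fits, whereas *Oas3*, *Ifi35* and *Irf1* lost it with the P6 libraries alone, without P6 WT replicate 2 or without P6 cKO replicate 2. *Irf1* also lost it without P6 WT replicate 1. Markers of fibroblasts and meninges moved with the label at P6, with a sum of 6835 and 6878 CPM in WT and 2706 and 2534 in cKO, and 8 of 8 called lower. Microglia markers summed to 4240 and 4415 in WT and 4804 and 4747 in cKO, with 1 of 16 identifiers called higher and 2 lower. Their part in these differences was not tested.

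**Figure D4:**
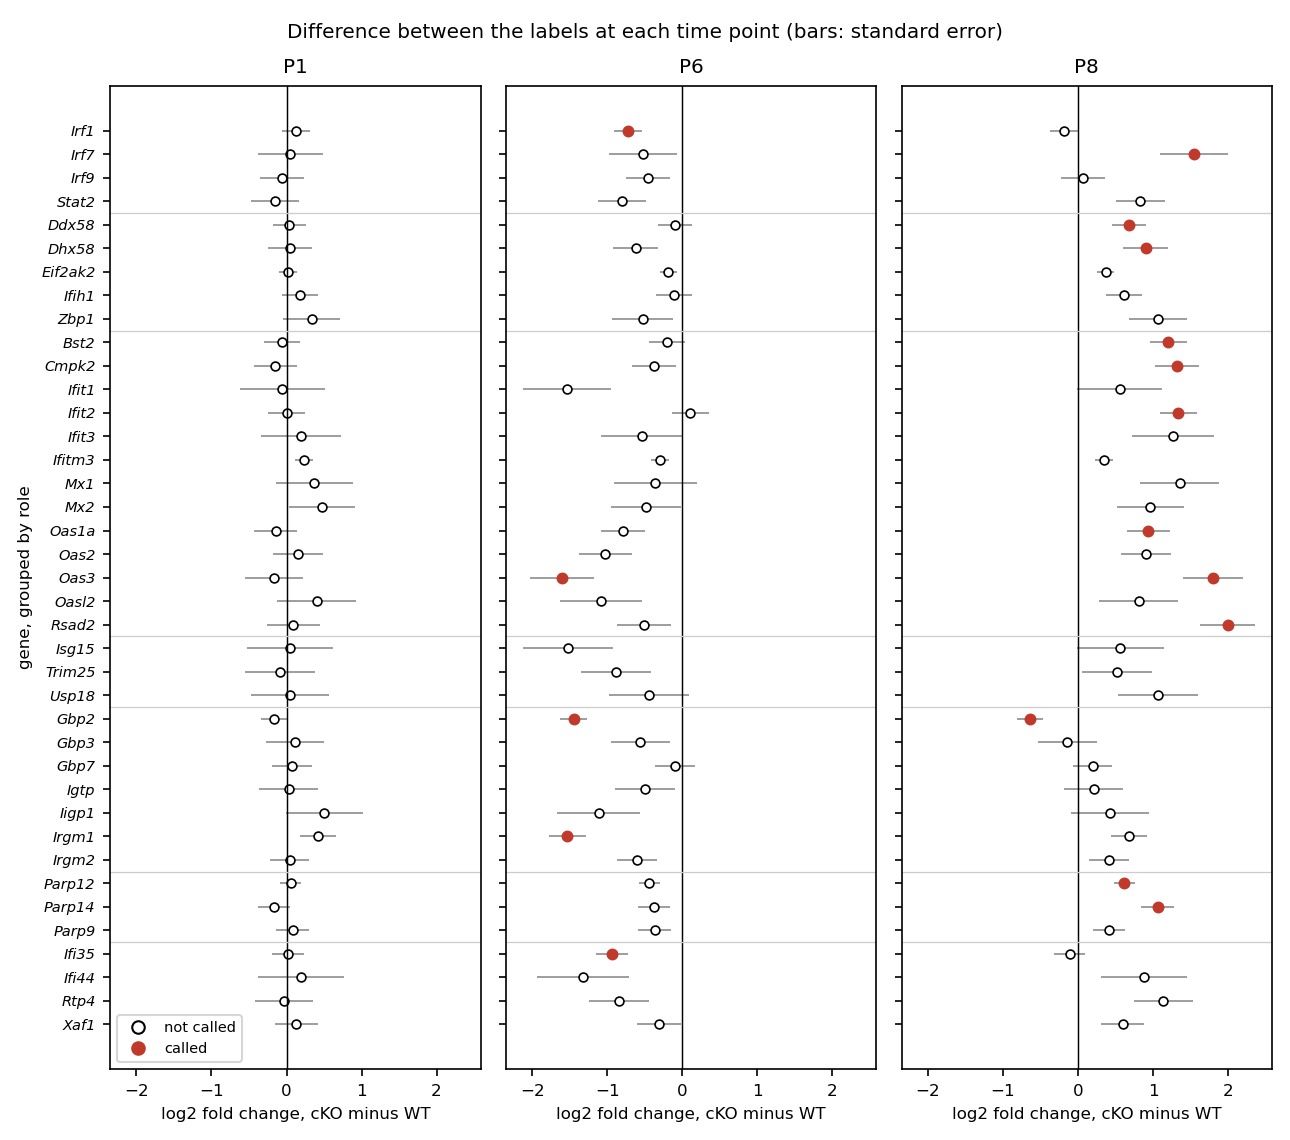
Each row is one of the 39 genes, ordered by role, and each point is the log2 fold change of cKO against WT at P1, P6 or P8 with its standard error as a bar. Filled points were called, at 1.5-fold or more with an adjusted p below 0.05. There are 0 filled points at P1, 5 at P6, all below 0, and 12 at P8, of which 11 are above 0.

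From P6 to P8, 35 members rose in cKO and 10 in WT, and the difference between these changes is tested further on as an interaction. In cKO the 35 of 39 stood against 11.9% of all genes called higher, with a median log2 change of 1.81 against 0.0049 for all genes. In WT the 10 stood against 8.66% of all genes, with a median of 0.62. With all libraries no member was called lower in either label, and none with a negative change had an unadjusted p below 0.05 in edgeR or in DESeq2, whereas 10.3% of all genes were called lower in WT and 12.2% in cKO. In WT the 10 were *Zbp1*, *Ifih1*, *Ifitm3*, *Oas2*, *Oas3*, *Gbp2*, *Gbp7*, *Iigp1*, *Parp14* and *Xaf1*, while in cKO those not called were *Ifit3*, *Igtp*, *Irf9* and *Trim25*. *Oas3* had the largest rise in cKO, at 4.59 (standard error 0.46, adjusted p = 4.06e-05) on the log2 scale, and *Oas2* the largest in WT, with 2.26 (standard error 0.35, adjusted p = 0.000927). Without P6 WT replicate 2 the number of members that rose in WT was 31, with a median of 1.404. Without P6 WT replicate 1, 6 rose, 3 fell (*Rsad2*, *Irgm1* and *Ifit3*) and the median was 0.22, and without P8 WT replicate 1, 5 rose. Microglia markers moved with this step in cKO, from a mean sum of 4775 to 8770.3 with 11 of 16 identifiers called higher, whereas in WT the sum was 4327 and then 4777 with 5 higher. Fibroblast markers were called higher in 7 of 8 in each label, and astrocyte markers were called lower in 8 of 10 in cKO and 3 of 10 in WT, with 1 higher. The part of these markers in the rise was not tested. For most members the P8 group mean did not reach that of P1. Group means at P8 were below those at P1 for 38 members in WT and for 35 in cKO, with median ratios of 0.397 and 0.691, and *Ifitm3* was the member highest relative to P1 in both.

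At P8, 11 members were higher in cKO and 1 was lower. The 11 made up 28.2% of the members, against 11.2% of all genes called higher, and the 1 was 2.56%, against 8.37% called lower. The median log2 fold change was 0.69 against 0.012 for all genes, and 35 of 39 members were above 0. By role, 6 of 13 effectors (*Rsad2*, *Oas3*, *Ifit2*, *Cmpk2*, *Bst2* and *Oas1a*), 2 of 5 sensors (*Dhx58* and *Ddx58*), 2 of 3 PARP family members (*Parp14* and *Parp12*) and 1 of 4 transcription factors (*Irf7*) were higher, and 1 of 7 GTPases, *Gbp2*, was lower. None of the ISG15 system genes and none of *Ifi44*, *Xaf1*, *Rtp4* and *Ifi35* was called.

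*Rsad2*, also called viperin, with 1 ISRE-type match before its start, makes a nucleotide that ends viral RNA chains (chromosome 12, 26442746 to 26456452), and it had 16.2 and 10.6 CPM in P8 WT and 51.2 and 55.2 in P8 cKO. Its log2 fold change was 1.99 (standard error 0.37, adjusted p = 0.00251). *Cmpk2*, its neighbour on the chromosome and a mitochondrial nucleotide kinase (chromosome 12, 26469204 to 26479837), had 13.6 and 9.81 in WT and 28.9 and 29.5 in cKO, with 1.32 (standard error 0.29, adjusted p = 0.00705). For both genes the cKO libraries lay close together, and WT replicate 1 was above WT replicate 2. *Oas3* had 28.0 and 13.7 in WT and 72.6 and 71.8 in cKO, with 1.80 (standard error 0.40, adjusted p = 0.00694). *Irf7* had 30.4 and 20.0 in WT and 73.6 and 73.5 in cKO, with 1.55 (standard error 0.45, adjusted p = 0.0258). Both were thus above WT in each cKO library, and *Oas3* had been below WT at P6. *Ifit2*, which binds viral RNA and stops its translation (chromosome 19, 34550694 to 34576419), had 62.0 and 40.3 in WT and 125 and 133 in cKO, with 1.34 (standard error 0.25, adjusted p = 0.00269). *Bst2*, whose start region held both motifs (chromosome 8, 71534255 to 71537456), had 157 and 134 in WT and 342 and 329 in cKO, with 1.21 (standard error 0.24, adjusted p = 0.00395). These cKO values were nearly as high as at P1 for *Bst2*, where the cKO libraries had 358 and 369, whereas *Ifit2* had 232 and 251 at P1.

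The remaining members that were higher at P8 moved less. *Parp14*, an ADP-ribosyl transferase, had a log2 fold change of 1.06. *Dhx58* (LGP2) and *Ddx58* (RIG-I), which sense viral RNA, had log2 fold changes of 0.90 and 0.68, *Parp12* had 0.62 and *Oas1a* 0.94. *Gbp2* went the other way, with 88.2 and 75.5 in WT and 52.0 and 53.3 in cKO and a log2 fold change of -0.64 (standard error 0.17, adjusted p = 0.0196). *Irf1* had 41.3 and 37.3 CPM in WT and 29.95 and 38.9 in cKO, and its groups overlapped. Of the 27 members not called, *Eif2ak2* (PKR, the kinase that stops translation) had an adjusted p of 0.0360 with a log2 fold change of 0.37, under the fold limit. *Rtp4*, *Irgm1*, *Ifitm3*, *Zbp1*, *Oas2*, *Stat2*, *Mx1* and *Ifih1* had adjusted p between 0.0509 and 0.0804 and log2 fold changes between 0.34 and 1.36. *Ifit3*, *Usp18*, *Mx2*, *Ifi44*, *Oasl2*, *Xaf1*, *Isg15*, *Ifit1*, *Trim25*, *Iigp1*, *Parp9*, *Irgm2*, *Igtp* and *Gbp7* lay between 0.19 and 1.26, and *Irf9*, *Ifi35*, *Gbp3* and *Irf1* between -0.19 and 0.07.

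The number of members called at P8 changed with the libraries in the fit. With the 4 P8 libraries alone, or without either P6 WT library, 23 were called higher. Without P8 WT replicate 2 there were 5, and without P8 cKO replicate 1 or 2 there were 7. *Rsad2*, *Oas3*, *Parp14*, *Ifit2* and *Bst2* were called in each of the 17 other fits, and the lower call of *Gbp2* was lost without P8 WT replicate 1 or either P8 cKO library.

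Microglia markers were higher at P8 in cKO too. Of 16 identifiers tested, 11 were called higher and 1, *Tmem119*, lower, with a median log2 fold change of 1.06 against 0.69 for the members. Their sum was 4811 and 4744 CPM in P8 WT and 8826 and 8715 in P8 cKO, and *C1qa* and *C1qc* were among the highest. Both P8 cKO libraries exceeded the sum in each of the 10 others, whereas no library of another group exceeded 6117. The summed members per summed microglia marker were 0.665 and 0.554 in P8 WT and 0.530 and 0.536 in P8 cKO. Abundant members weigh most in such a sum, *Ifitm3* with 685 and 678 CPM in P8 cKO, so the ratio does not describe single members. At P1 the ratio was 1.09 and 1.04 in WT and 1.31 and 1.37 in cKO, and at P6 it was 0.327 and 0.594 in WT and 0.309 and 0.263 in cKO. Of the 12 lymphocyte markers, *Cd4* and *Trbc1* were measured and the other 10 were not analysed here. Their sum was 5.60 and 5.90 CPM in P6 WT and 0.944 and 1.31 in P6 cKO. It was 1.04 and 0.418 in P1 WT, 1.07 and 0.492 in P1 cKO, 0 and 0.402 in P8 WT and 1.58 and 0.987 in P8 cKO. The sum was thus highest in the P6 WT libraries, but only 1 of the 2 markers was above 0 in P6 WT replicate 2. Of the 2, only *Cd4* was called between labels at P6, lower in cKO. A sum over these 2 genes does not stand for the list, and the presence of lymphocytes was not tested. Astrocyte markers summed to 1594 and 1966 in P8 WT and 717 and 708 in P8 cKO, with 5 of 10 called lower, among them *Aqp4* and *Gfap*. Fibroblast markers summed to 26199 and 26067 in WT and 8254 and 8509 in cKO, with 7 of 8 called lower. Summed microglia, astrocyte and fibroblast markers thus all differed between the labels at P8, and their part in the P8 result was not tested.

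**Figure D5:**
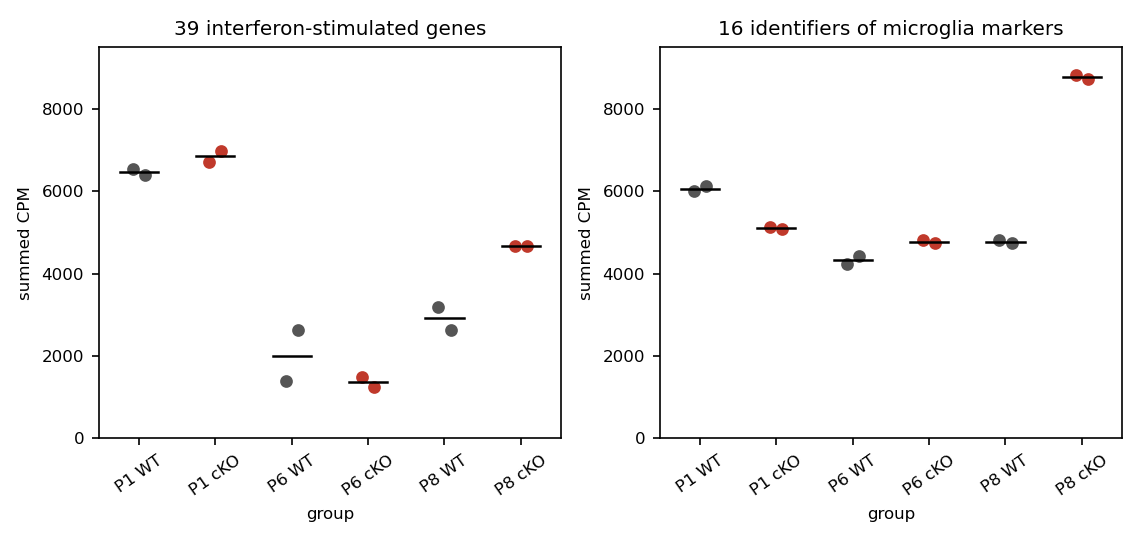
Each point is the summed CPM of one library, for the 39 genes (left) and for 16 microglia marker identifiers (right), with black bars for group means. Grey is WT and red is cKO. Member sums are highest at P1, lowest at P6 and higher in cKO than in WT at P8, and microglia sums are highest in P8 cKO, at 8826 and 8715.

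The change of the genotype effect between days was tested as an interaction term, called at an adjusted p below 0.05 without a fold limit. From P1 to P6, 2 members had a called change, or 5.13%, against 15.3% of all genes, and both went down: *Irgm1* at -1.95 (standard error 0.34, adjusted p = 0.00440) and *Gbp2* at -1.28 (standard error 0.25, adjusted p = 0.00761) on the log2 scale. From P6 to P8, 17 members (43.6%) had a called change, against 21.5% of all genes, and all 17 were positive. They were led by *Oas3* at 3.40 (standard error 0.58, adjusted p = 0.00296), *Rsad2* at 2.50 (standard error 0.51, adjusted p = 0.00766) and *Irgm1* at 2.22 (standard error 0.34, adjusted p = 0.00161). From P1 to P8, 6 members (15.4%) had a called change, against 25.7% of all genes: *Oas3*, *Rsad2*, *Cmpk2*, *Ifit2*, *Bst2* and *Parp14*, with log2 terms from 1.23 to 1.96. The count from P6 to P8 was 36 without P6 WT replicate 1, 11 without P6 WT replicate 2 and 5 without P8 WT replicate 2, and the count from P1 to P6 was 27 without P6 WT replicate 1. Without P8 WT replicate 2 the count from P1 to P8 was 0, and without either P6 WT library it was 19. It was 1 to 3 without either P8 cKO library or any P1 library.

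Genes upstream of the members were counted by the same rule. The 21 interferon genes of the list were not analysed here. Among all genes tested, 4.01%, 7.16% and 11.2% were called higher in cKO at P1, P6 and P8, and 0.892%, 6.38% and 8.37% lower. Of 10 receptor and JAK-STAT genes, 0 were called at P1, P6 or P8. Of 15 genes of nucleic acid sensing, 0 were called at P1. At P6, 1 rose and 1 fell, against 7.16% and 6.38% of all genes, and at P8, 4 rose, against 11.2%. *Irf5*, a factor of Toll-like receptor signalling, was higher in cKO at P6 (46.4 and 43.6 against 26.4 and 24.1 CPM) and at P8 (65.1 and 70.2 against 36.1 and 29.6). *Tmem173* (STING) was lower at P6, with 18.2 and 17.1 CPM in cKO and 30.6 and 32.5 in WT. *Irf8*, a factor of myeloid cells, was higher at P8, with 127 and 118 in cKO and 57.9 and 53.4 in WT. Of 16 brakes on the response, 2 rose and 0 fell at P8, where 11.2% of all genes were called higher and 8.37% lower. *Ptpn6*, a phosphatase of blood cells, had 159 and 168 in cKO and 84.1 and 83.0 in WT. *Samhd1*, which degrades nucleotides, had 225 and 226 in cKO and 132 and 125 in WT.

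Another 53 interferon-induced genes, not among the 39, were tested too. In cKO, 5 were called higher and 0 lower at P1, against 4.01% and 0.892% of all genes. At P6 the counts were 2 higher and 13 lower, against 7.16% and 6.38%, and at P8 they were 18 higher and 4 lower, against 11.2% and 8.37%. From P1 to P6, 43 fell in WT and 48 in cKO, against 10.9% and 10.4% of all genes. From P6 to P8, 27 rose in WT and 43 in cKO, against 8.66% and 11.9%. These counts were not repeated without single libraries. *Apol9a* and *Apol9b*, paralogous genes whose counts may be mixed, were higher in cKO at every day. *Apol9b* had 15.8 and 15.0 CPM in P1 WT and 69.6 and 74.1 in P1 cKO, and its log2 fold change was 2.22 there, then 2.01 and 2.67 at the later days. *Tgtp1* and *Tgtp2*, GTPase paralogs of the same family as *Irgm1*, were lower at P6 and P8. *Tgtp2* had 19.7 and 43.0 in P6 WT and 1.11 and 1.06 in P6 cKO, and its log2 fold changes were -4.85 at P6 and -1.64 at P8. *Ifitm1*, a relative of *Ifitm3*, was higher at P1 and lower at P6 and P8, with log2 fold changes of 1.05, -1.49 and -1.52. *Cxcl11*, a chemokine for T cells, had 0 and 0.166 CPM in P8 WT and 0.655 and 0.701 in P8 cKO, and was called higher there.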

How the data were processed

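Read counts per gene were deposited by the authors for 12 mRNA-capture libraries. Reads were aligned to GRCm38 (mm10) with HISAT2 per the labels, and how reads were assigned to genes is not given in the sources. Members were taken by gene name. The members and lists were chosen with earlier results of these data known.

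edgeR 4.0.16 (R 4.3.3) was used with TMM scaling, its filter on low counts, which kept 17938 of 18903 genes, and a quasi-likelihood test with 1 mean per group over all 12 libraries. Calls needed a change of 1.5-fold or more with a Benjamini-Hochberg adjusted p below 0.05, and interactions the adjusted p alone. The script was tested on simulated data. Totals were 54413504 to 89183250 counts. With 2 libraries against 2, an exact permutation test cannot go below 0.333, so none is given for single values.

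Values in every library are given for the up to 6 called members with the largest changes between labels at each day and a mean of at least 1 CPM, for *Stat2*, *Irf1*, *Irf7*, *Irf9* and *Zmynd8*, and for up to 2 called rises and falls of each pathway list. *Trim25*, *Oasl2*, *Ifi44*, and *Bst2* at P1, were added after their values were seen. Gene positions are from GENCODE vM21 and start regions from RefSeq (GRCm38.p6). The alternatives were DESeq2 1.42.0, its size factors, no filter, a replicate block, other cut-offs, the libraries of a day alone and each library left out.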

Additional observations from a re-analysis of the deposited data

Results flagged for a closer look

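The genotype effect on some members differed between days by the interaction test in edgeR. From P1 to P6 it changed in 2 of 39 members (5.13%), against 15.3% of all genes, *Irgm1* with a log2 term of -1.95 and *Gbp2* with -1.28. Both terms were called in all 16 alternatives run, and the count was 27 without P6 WT replicate 1.

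From P6 to P8 the effect changed in 17 members (43.6%), against 21.5% of all genes, with the largest log2 terms in *Oas3* (3.40), *Rsad2* (2.50) and *Irgm1* (2.22). These 3, with *Parp14* and *Parp12*, were called in all 16 alternatives run. The count was 36 without P6 WT replicate 1 and 5 without P8 WT replicate 2.

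From P1 to P8 the effect changed in 6 members (15.4%), against 25.7% of all genes, with the largest log2 terms in *Oas3* (1.96), *Rsad2* (1.90) and *Cmpk2* (1.47). No member was called in all 16 alternatives, since the count was 0 without P8 WT replicate 2.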

How the results depend on the processing

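No member was called between labels at P1 in any fit. Median log2 differences between labels kept their sign in all fits with exceptions at P6. That at P6 was 0.086 without P6 WT replicate 2 and -1.10 without replicate 1, and the median change of the effect from P1 to P6 was 0.063 and -1.13 in the same fits. With 1 library left out in turn, members called at P6 ran from 2 to 28 lower and from 0 to 2 higher in cKO, and at P8 from 5 to 23 higher and from 0 to 1 lower. Members that rose from P6 to P8 in WT ran from 5 to 31. Members with a changed genotype effect ran from 2 to 27 for P1 to P6, from 5 to 36 for P6 to P8 and from 0 to 19 for P1 to P8. With the libraries of the day alone, 3 members were called lower at P6 and 23 higher at P8. At an unadjusted p below 0.05, 11 were lower at P6 and 19 higher at P8, and 8 and 27 changed their genotype effect from P1 to P6 and from P6 to P8. At a fold change of at least 2, 3 were lower at P6, 7 higher and 0 lower at P8, and 6 rose from P6 to P8 in WT. DESeq2 gave 5 members with a changed effect from P1 to P6. The cause of these shifts was not tested. Of 237 counts under alternatives, 192 were within 1.5 times the reported count and 45 were not. The 192 include counts of 0 that stayed at 0, such as those at P1, and fits without a library outside the comparison. Replicate numbers did not pair the libraries, with correlations of deviations between -0.063 and 0.044 across groups, and with the replicate number as a block 9 members were higher at P8 and 5 lower at P6. Where an arm was left with 1 library, that library was assumed to vary like the other groups.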
